A study of Rattus norvegicus with 8 samples.

Results

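The genes described here encode the cone opsins and the proteins that carry the cone light response. They were chosen by gene symbol: every spot that is not a control and whose gene name is Opn1sw, Opn1mw, Arr3, Gnat2, Pde6c, Pde6h, Gnb3, Gngt2, Cnga3 or Cngb3 was taken. All 10 genes were found among the 26334 gene names of the array, with 12 probes on 21 spots, and 9 of them passed the spot filter. Retinal RNA of female Lister Hooded rats aged 8 weeks was hybridized onto 4 Agilent arrays of 2 colours. In the ONC group (4 retinas) the right optic nerve had been crushed, and the CTR group (4 retinas) had sham surgery that left the nerve uncrushed. Retinas were taken 2 weeks after surgery. Each channel of an array holds 1 retina, and the number of arrays limits the precision.

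Cones are the photoreceptors of daylight vision and are far fewer than rods in the rat retina. Light activates a cone opsin, which switches on the cone transducin, a G protein, and this in turn relieves the inhibition of the cone phosphodiesterase PDE6. The fall in cyclic GMP closes the cone cyclic nucleotide-gated (CNG) channel, and cone arrestin binds the opsin to end the response. Rods use a parallel cascade built from paralogous genes. Crush of the optic nerve injures the axons of retinal ganglion cells (RGCs), which lie apart from the photoreceptor layer.

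The labels of the channels have to be read with care. By the labels, every CTR retina was in Cy5 (red) and every ONC retina in Cy3 (green), and array n held the retinas CTRn and ONCn, so dye and condition cannot be told apart. The study's methods instead place retinas of 1 group on each array with the dyes divided within groups. Of the 10 RGC markers listed, 9 passed the filter. The median of their log2 levels, each set against its own mean over the 8 channels, was -1.60 for CTR1, 1.18 for CTR2, -1.27 for CTR3 and -1.0 for CTR4. Among channels labelled ONC it was 1.33 for ONC1, 1.32 for ONC2, 1.37 for ONC3 and -1.19 for ONC4. By this median, RGC markers were high in CTR2, ONC1, ONC2 and ONC3 and low in the other channels. Of the markers, 8 followed this and Tubb3 did not: it was 1.80 in CTR2, under its mean, and 2.24 in ONC4, above it, and was higher in every ONC channel than in every CTR channel. By the labels 9 of 9 were higher in ONC, the direction opposite to the loss of RGC markers that the study describes. No channel was moved to another group, and a difference below is one between channels so labelled. The channels ONC1 and ONC3 lay closest of all pairs, their median absolute log2 difference (scaled to an SD) being 0.112 over all genes against 0.228 to 0.398 for the other pairs, and no value of a gene was identical between them. Whether they hold separate retinas was not tested, and results are also given with either left out.

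The median foreground was 447 to 626 in the CTR channels over median backgrounds of 55 to 56.5, and 218 to 495 in the ONC channels over 26 to 29.5. Foreground over local background ranged from 424 to 756 for Pde6h and from 112 to 307 for Opn1sw, and was lowest, among members that passed, for Cngb3, at 6.10 to 10.3, its foreground being under the median in every channel. Levels are log2 intensities after background subtraction and loess, relative to the median spot of the channel. They depend on the probe, so levels of different genes are not compared.

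Probes are 60 bases long and are placed on rn4, the rat build named in the file headers. Those printed belong to the members on which the results turn: the opsin with the most even difference, the PDE6 subunit whose probe is split in the genome, 1 of the probes of Gngt2 that disagreed, and the probe of Cnga3 that stayed near background.
Opn1mw: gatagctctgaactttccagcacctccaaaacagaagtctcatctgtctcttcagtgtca
Pde6h: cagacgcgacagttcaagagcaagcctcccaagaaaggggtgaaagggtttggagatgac
Gngt2: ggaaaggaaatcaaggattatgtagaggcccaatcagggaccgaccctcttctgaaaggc
Cnga3: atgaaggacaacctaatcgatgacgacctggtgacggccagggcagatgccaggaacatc
The Opn1mw probe lies at chrX:160115898-160115957 (plus strand) and the Gngt2 probe at chr10:84557202-84557261 (plus strand). The Pde6h probe spans 2459 bases at chr4:174009947-174012405 (plus strand), and that of Gnb3 spans 944 bases at chr4:160958006-160958949 (minus strand), so each of these is divided over at least 1 intron. The GC content of the member probes was 35% to 55% with a median of 45%, and the median over all 30367 probes was 45%. By accession, 8 of the 10 genes matched the same symbol in RefSeq, and Pde6c and Cnga3 keep the name given on the array.

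Over all 16307 genes that passed the filter, limma called 81 between ONC and CTR channels at an adjusted p under 0.05, which is 0.497%. Of the 9 members, limma called 0, and 4 had an unadjusted p under 0.05, as did 3025 of all genes (18.6%). The methods' t-test, without the fold cut-off that the study adds to it, passed 2690 of the 16307 genes before adjustment. Among them were 4 of the 9 members, and 0 genes passed after Benjamini-Hochberg adjustment. With the array as a replicate block, 1254 genes were called (7.69%), and 3 members were among them, Opn1mw, Pde6h and Cngb3. The call count depended on single channels: it fell to 38 genes without ONC2 and to 0 without any other channel (2085 to 3252 genes at an unadjusted p under 0.05 by limma), and 0 members were called with any 1 channel left out, ONC1 and ONC3 included. In direction, 7 of 9 members were lower in the ONC channels and 2 were higher, and the median log2 difference was -0.32. Of all genes 52.6% were lower, with a median of -0.01. The quartiles over all genes were -0.15 and 0.13. All 4 ONC channels lay under all 4 CTR channels for 2 members, Opn1mw and Cngb3, where 6.92% of all genes did so, and above them for 1 member, Gngt2, where 5.76% did. As dye follows condition by the labels, these differences cannot be told apart from differences of dye. In bulk retina, a difference in cone number and one in RNA per cone cannot be told apart either.

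**Figure D1:**
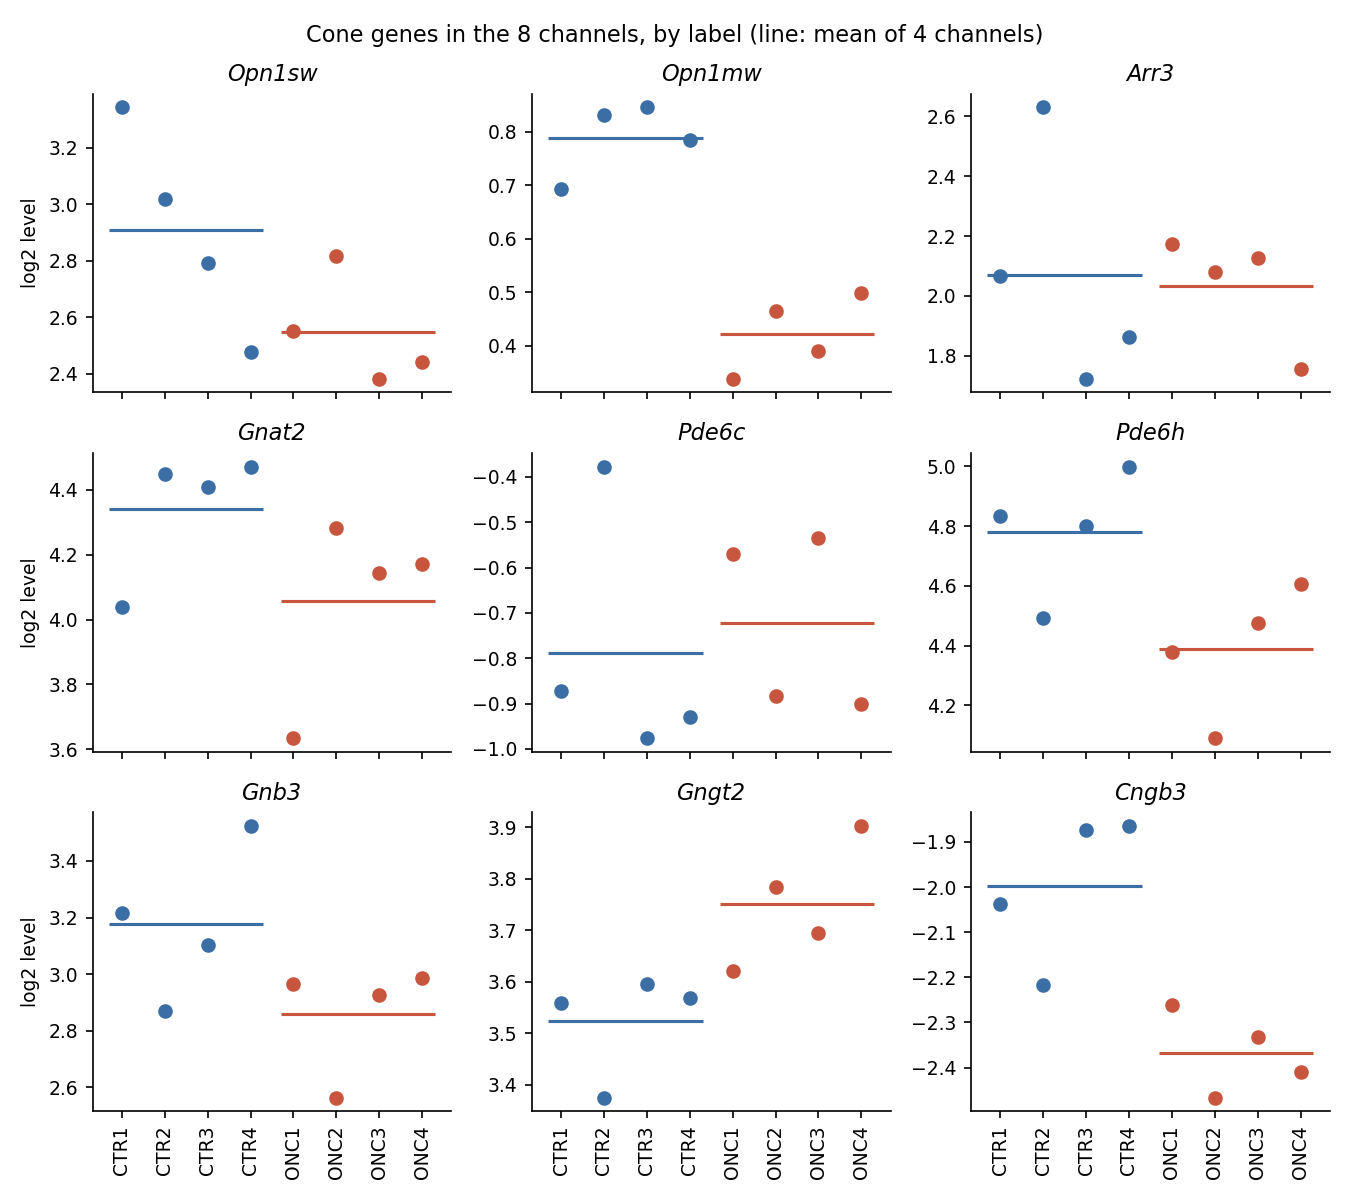
Log2 level (vertical axis, relative to the median spot of the channel) of each cone gene in the 8 channels (horizontal axis), blue for CTR and red for ONC, with a line at the mean of 4 channels; each panel has its own scale. Opn1mw, Cngb3 and Gngt2 separate by label, and Arr3 and Pde6c are highest in CTR2.

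The opsins differ in the wavelengths they absorb, Opn1mw being the middle-wavelength opsin of rat cones and Opn1sw the short-wavelength opsin. The log2 level of Opn1mw was 0.69 (CTR1), 0.83 (CTR2), 0.85 (CTR3) and 0.78 (CTR4), and 0.34 (ONC1), 0.46 (ONC2), 0.39 (ONC3) and 0.50 (ONC4). Every ONC channel was under every CTR channel, and the spread within each group was narrow, with means of 0.79 ± 0.07 (SD, n = 4) and 0.42 ± 0.07 (SD, n = 4). The difference, ONC minus CTR, was -0.37 (standard error 0.08, 95% interval -0.54 to -0.19, adjusted p = 0.0668 by limma), a level 0.776 times that of CTR, and it was negative on 4 of 4 arrays. It did not pass the threshold, but did with the array as a replicate block (adjusted p = 0.0358 by limma), with median scaling in place of loess (0.0149) and with Aquantile normalization (0.0413). Of all 16307 genes, 1254 passed with the block, 3194 with median scaling and 408 with Aquantile. Over all alternatives the adjusted p of Opn1mw ranged from 0.0149 to 0.454. With the processed signal its difference was -0.22.

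Opn1sw was at 3.34 (CTR1), 3.02 (CTR2), 2.79 (CTR3) and 2.48 (CTR4), and at 2.55 (ONC1), 2.81 (ONC2), 2.38 (ONC3) and 2.44 (ONC4). The CTR channels were widely spread, CTR4 lay among the ONC channels, and the groups overlapped. The difference was -0.36 (standard error 0.18, 95% interval -0.77 to 0.05, adjusted p = 0.332 by limma), negative on 4 of 4 arrays but only -0.03 on array 4 against -0.79 on array 1. It was -0.21 without CTR1 and -0.50 without CTR4. The difference of Opn1mw was thus as large as that of Opn1sw with a spread among CTR channels of 0.07 against 0.37. The log2 ratio of Opn1mw over Opn1sw, each channel set against the mean ratio, was -0.53 (CTR1), -0.07 (CTR2), 0.18 (CTR3) and 0.43 (CTR4), and -0.09 (ONC1), -0.23 (ONC2), 0.13 (ONC3) and 0.18 (ONC4). The groups overlapped, and the ratio differed by -0.01 between ONC and CTR channels (two-sided exact permutation p = 0.943, where the smallest possible is 0.0286), and by -0.18 to 0.14 with 1 channel left out.

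Cone transducin is made of the alpha subunit Gnat2, the beta subunit Gnb3 and the gamma subunit Gngt2. Gnat2 was at 4.04 (CTR1), 4.45 (CTR2), 4.41 (CTR3) and 4.47 (CTR4), and at 3.63 (ONC1), 4.28 (ONC2), 4.14 (ONC3) and 4.17 (ONC4). CTR1 lay under 3 of the ONC channels and ONC1 was the lowest of all, so that array 1 was low in both channels and the groups overlapped. The difference was -0.28 (standard error 0.16, 95% interval -0.64 to 0.07, adjusted p = 0.382 by limma), negative on 4 of 4 arrays, with an adjusted p of 0.0576 by limma with the array as a block. It was -0.14 without ONC1, -0.43 with median scaling in place of loess and -0.57 over CTR2, CTR4, ONC1 and ONC3 alone.

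Gnb3, which ON bipolar cells also use, was at 3.21 (CTR1), 2.87 (CTR2), 3.1 (CTR3) and 3.52 (CTR4), and at 2.96 (ONC1), 2.56 (ONC2), 2.93 (ONC3) and 2.99 (ONC4). Both channels of array 2 were the lowest of their group, and the groups overlapped through CTR2. The difference was -0.32 (standard error 0.15, 95% interval -0.66 to 0.03, adjusted p = 0.311 by limma), negative on 4 of 4 arrays, and -0.20 without CTR4. Among the 7 bipolar markers listed, all passed the filter, 6 were higher and 1 was lower in ONC, limma called 0, and the median difference was 0.23. Their median level against the mean was -0.13, -0.22, -0.05 and -0.06 across CTR1 to CTR4, then 0.24, -0.13, 0.20 and 0.03 across ONC1 to ONC4. The bipolar markers thus lay on the other side of zero from Gnb3, and the part of bipolar cells in its level was not tested.

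Gngt2 was the transducin subunit that lay higher in ONC. Averaged over its 2 probes, it was at 3.56 (CTR1), 3.38 (CTR2), 3.60 (CTR3) and 3.57 (CTR4), and at 3.62 (ONC1), 3.78 (ONC2), 3.70 (ONC3) and 3.90 (ONC4). Every ONC channel lay above every CTR channel, although ONC1 exceeded CTR3 only slightly. The difference was 0.23 (standard error 0.09, 95% interval 0.02 to 0.44, adjusted p = 0.242 by limma), positive on 4 of 4 arrays, and 0.13 with median scaling in place of loess. It rested mainly on 1 of its probes. The probe shown above, on a single spot, was at 3.45 (CTR1), 3.16 (CTR2), 3.38 (CTR3) and 3.39 (CTR4), and at 3.64 (ONC1), 3.74 (ONC2), 3.63 (ONC3) and 3.89 (ONC4), a difference of 0.38 (standard error 0.10, adjusted p = 0.0896 by limma over 18599 probes) that was positive on 4 of 4 arrays. The other probe, repeated on 10 spots of which 8 were kept, averaged 3.67 (CTR1), 3.59 (CTR2), 3.81 (CTR3) and 3.75 (CTR4), and 3.60 (ONC1), 3.82 (ONC2), 3.76 (ONC3) and 3.92 (ONC4), and its groups overlapped. Its difference was 0.07 (standard error 0.10, adjusted p = 0.763 by limma), positive on 2 of 4 arrays. Within arrays, ONC exceeded CTR on 1 of 8 spots of array 1 and 8, 5 and 7 of 8 for the next 3 arrays. The higher level of Gngt2 in ONC was therefore not seen alike by both probes.

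**Figure D2:**
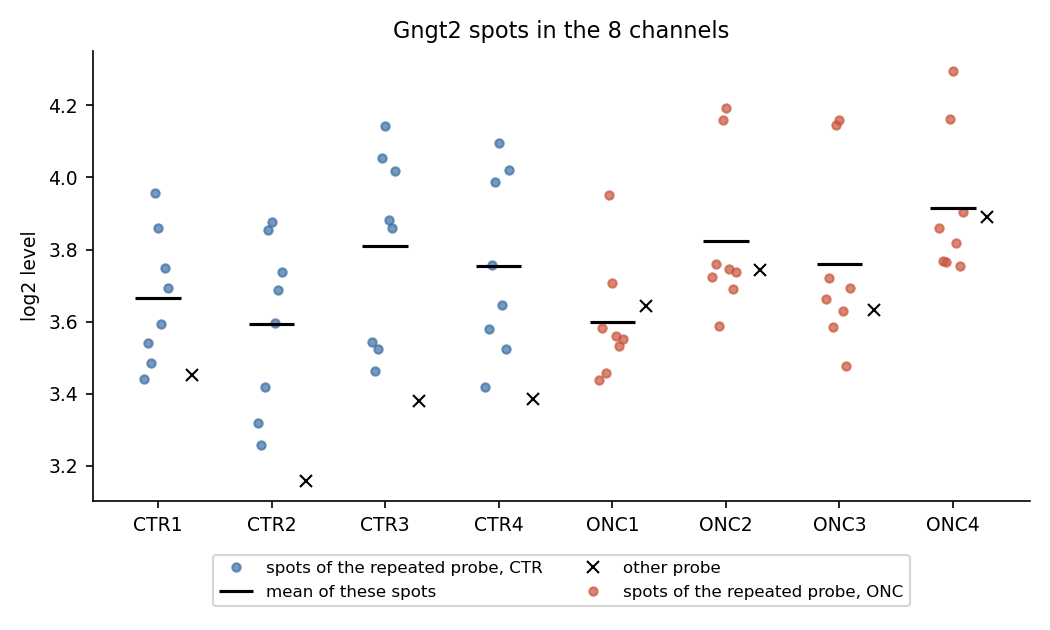
Log2 level (vertical axis) of Gngt2 spots in the 8 channels (horizontal axis): circles are the 8 kept spots of the repeated probe, the line their mean, and the cross the single spot of the other probe. The crosses separate by label and the circles do not; the height of the crosses against the circles depends on the probe and is not compared.

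Cone PDE6 has the catalytic subunit Pde6c and the inhibitory gamma subunit Pde6h. Pde6h was at 4.84 (CTR1), 4.49 (CTR2), 4.8 (CTR3) and 5.0 (CTR4), and at 4.38 (ONC1), 4.09 (ONC2), 4.48 (ONC3) and 4.61 (ONC4). Array 2 was the lowest in both groups and ONC4 exceeded CTR2, so the groups overlapped, but within arrays the difference was even, at -0.45, -0.40, -0.32 and -0.39 on arrays 1 to 4. The difference was -0.39 (standard error 0.14, 95% interval -0.71 to -0.07, adjusted p = 0.184 by limma). It passed with the array as a replicate block (adjusted p = 0.0327 by limma) and with median scaling in place of loess (0.0260). Of all 16307 genes, 1254 passed with the block and 3194 with median scaling. Over all alternatives the adjusted p of Pde6h ranged up to 0.561. The Pde6h and Gnb3 spots carried a population flag on their local background, a flag that was not among the grounds for leaving a spot out; with it as a ground, neither gene has a value.

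Pde6c was at -0.87 (CTR1), -0.38 (CTR2), -0.98 (CTR3) and -0.93 (CTR4), and at -0.57 (ONC1), -0.88 (ONC2), -0.54 (ONC3) and -0.90 (ONC4). The highest channel was CTR2, followed by ONC3 and ONC1, and the other 5 lay close together. The difference was 0.07 (standard error 0.15, 95% interval -0.28 to 0.42, adjusted p = 0.867 by limma), positive on 3 of 4 arrays and -0.51 on array 2. With 1 channel left out it ranged from 0.00417 (without CTR3) to 0.20 (without CTR2), and was at most 0.04 without CTR1, CTR4, ONC1 or ONC3 and at least 0.12 without ONC2 or ONC4. CTR2, ONC1 and ONC3 are channels with high RGC markers, but ONC2, where these are as high, was among the low channels for Pde6c, and the part of RGC content was not tested.

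The cone CNG channel is assembled from Cnga3, which can form the pore by itself, and the modulatory subunit Cngb3. Cngb3 was at -2.04 (CTR1), -2.22 (CTR2), -1.87 (CTR3) and -1.86 (CTR4), and at -2.26 (ONC1), -2.47 (ONC2), -2.33 (ONC3) and -2.41 (ONC4). Every ONC channel was under every CTR channel, with CTR2 and ONC1 nearly touching. The difference was -0.37 (standard error 0.10, 95% interval -0.60 to -0.14, adjusted p = 0.111 by limma), negative on 4 of 4 arrays, and passed with the array as a replicate block (adjusted p = 0.0486 by limma). Over all alternatives the adjusted p ranged from 0.0486 to 0.556, and the difference was -0.15 with median scaling in place of loess. Cngb3 was the dimmest member that passed.

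Cnga3 was the member that did not pass. The foreground of the probe shown above was 1.37 to 1.81 times its background in the CTR channels and 2.51 to 3.53 times in the ONC channels, and it was not well above background in any of the 8 channels. The other probe of Cnga3, at chr9:36202675-36202734 (plus strand), reached 1.61 to 1.73 times background in the CTR channels and 3.03 to 3.58 times in the ONC channels. It was marked well above background in 6 channels, all but ONC1 and ONC3, and carried an outlier flag on array 4, where the local background was raised. No fold is given for Cnga3.

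Arr3, the cone arrestin, was at 2.07 (CTR1), 2.63 (CTR2), 1.72 (CTR3) and 1.86 (CTR4), and at 2.17 (ONC1), 2.08 (ONC2), 2.13 (ONC3) and 1.76 (ONC4). CTR2 was the highest and CTR3 the lowest of the 8 channels, so the ONC channels lay within the range of the CTR channels. The difference was -0.04 (standard error 0.19, 95% interval -0.47 to 0.40, adjusted p = 0.943 by limma), negative on 2 of 4 arrays and positive on 2. It was 0.15 without CTR2 and 0.06 without ONC4, but -0.15 without CTR3, -0.11 without CTR4, -0.08 without ONC1 and -0.07 without ONC3.

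**Figure D3:**
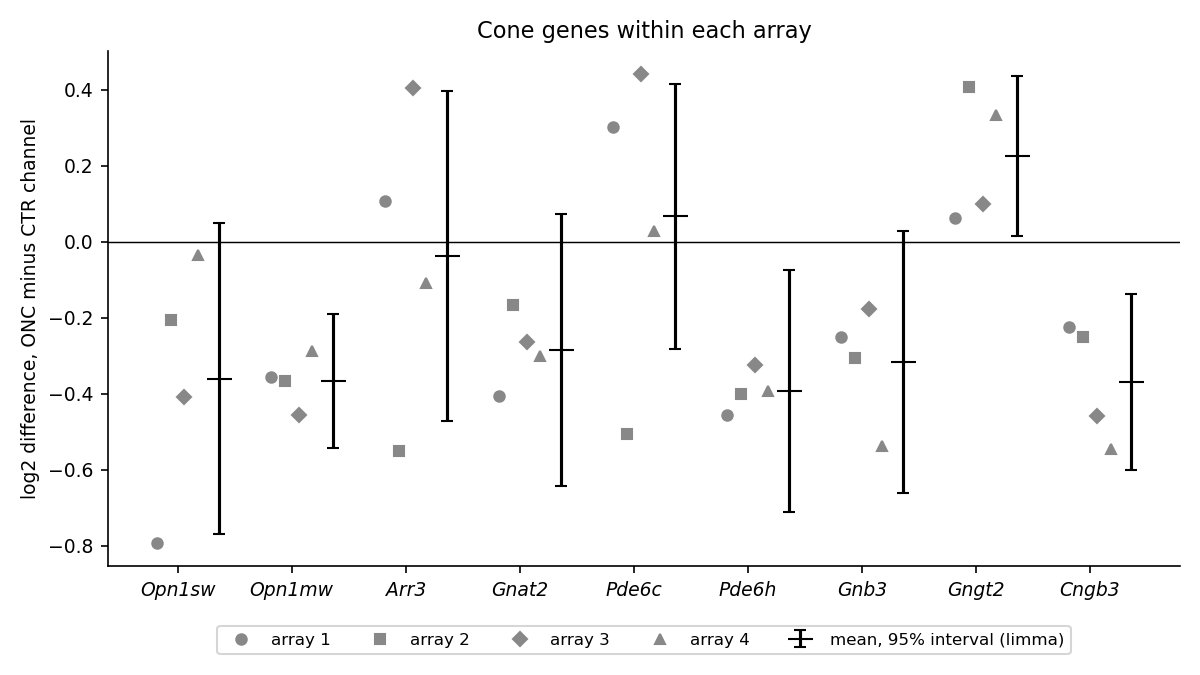
Log2 difference within each array, ONC minus CTR channel (vertical axis, grey symbols), for each cone gene (horizontal axis), with the mean difference and its 95% interval from limma in black. Opn1mw and Pde6h are even over the 4 arrays, and Arr3 and Pde6c change sign between them.

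The members did not vary as 1 block. Their median level against the mean over 8 channels was 0.09, 0.23, 0.08 and 0.18 across CTR1 to CTR4, then -0.08, -0.13, -0.09 and -0.11 across ONC1 to ONC4. In ONC1 and ONC4, 7 of 9 members were under their own mean, and in ONC2 5 were. Over the 8 channels, Opn1mw had a Pearson r of 0.86 with the mean of the other members. It was 0.65 for Cngb3, 0.54 for Pde6h, 0.41 for Gnb3, 0.32 for Gnat2 and 0.23 for Opn1sw. For Arr3 it was -0.10, for Pde6c -0.23 and for Gngt2 -0.84. These values are given as a description of channels that share arrays and dyes. The median SD of the members was 0.21 over CTR channels and 0.19 over ONC channels, against 0.18 and 0.16 for all genes. Outside the members and the lists, the 5 genes whose levels over 8 channels were most like the mean profile of the members were Pdhb, a subunit of pyruvate dehydrogenase (r = 0.985), Dbh, dopamine beta-hydroxylase (0.978), the syntaxin Stx18 (0.977), Msl2 (0.975) and Gnb2l1 (0.975). As the profile itself is lower in every ONC channel than in every CTR channel, genes chosen for likeness to it are lower there by that choice, here by log2 differences of -0.31, -0.46, -0.30, -0.43 and -0.38 in that order, so that no test of these differences is given.

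The rod paralogues were set beside the cone genes. Of 9 described here, 9 passed the filter, 5 were lower and 4 higher in ONC, limma called 0, and their median difference was -0.03. Gnb1, the rod transducin beta subunit that many other cells share, differed by -0.42 (standard error 0.10, 95% interval -0.64 to -0.20, adjusted p = 0.0811 by limma), with every ONC channel under every CTR channel. Sag, the rod arrestin, differed by -0.39 and Gnat1, the rod transducin alpha subunit, by -0.23. Gngt1, the rod paralogue of Gngt2, lay higher in ONC by 0.17, and Pde6b, the catalytic paralogue of Pde6c, by 0.08, as did its partner Pde6a, by 0.07. Pde6g differed by -0.14, Cnga1 by 0.01 and Cngb1 by -0.03, with adjusted p from 0.208 to 0.977 by limma for these 8.

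**Figure D4:**
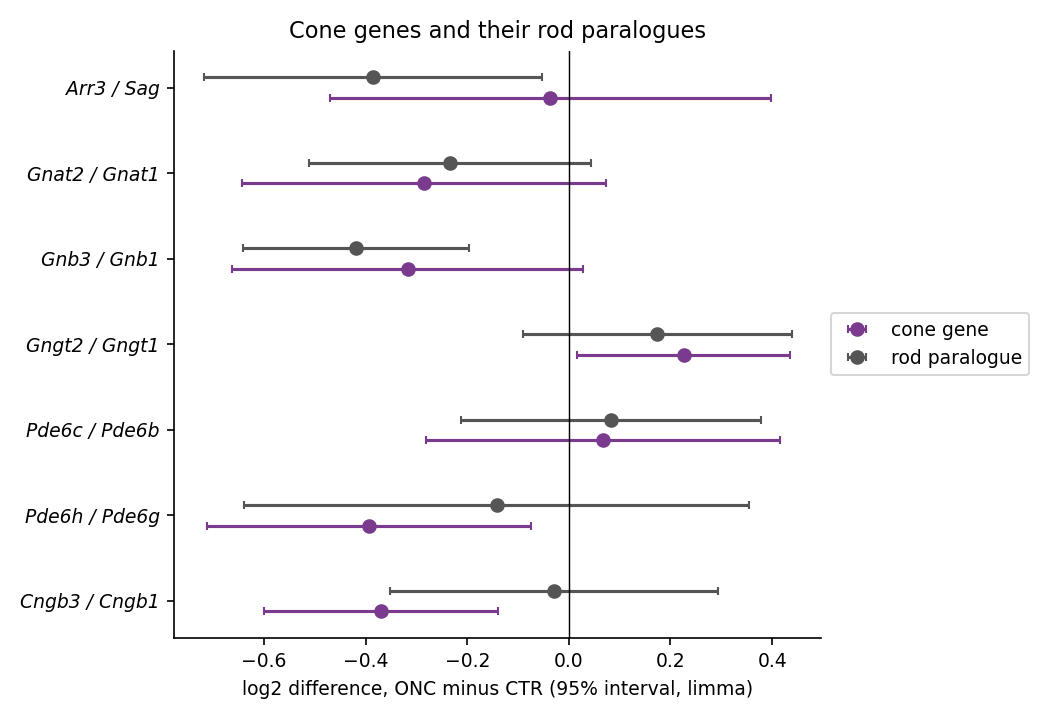
Log2 difference, ONC minus CTR (horizontal axis, with the 95% interval from limma), of 7 cone genes (purple) and their rod paralogues (grey). The intervals belong to single genes and overlap in every pair shown, which is not a test of the pair. The estimates lie farthest apart for Arr3 with Sag and Cngb3 with Cngb1.

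The ratio of each cone gene to its rod paralogue was compared between groups in 9 pairs by a two-sided exact permutation test, adjusted by Benjamini-Hochberg over the pairs. The smallest adjusted p was 0.257, which is the least that 1 pair alone can reach with 4 channels per group, so that this test could not have called 1 pair by itself; 7 of the pairs are described here. The ratio of Cngb3 over Cngb1 differed by -0.34, lower in ONC on 4 of 4 arrays, and its permutation p was 0.0286, the smallest possible, but with median scaling in place of loess it differed by -0.07. Pde6h over Pde6g differed by -0.25 (permutation p = 0.171), 0.01 with median scaling and -0.65 with the processed signal, and Arr3 over Sag by 0.35 (permutation p = 0.400), 0.68 with median scaling and 0.12 with the processed signal. With 1 channel left out these 2 ratios differed by -0.38 to -0.18 and by 0.19 to 0.59. The other 4 differed by -0.05 to 0.10, within the spread between channels.

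Other photoreceptor genes, not all of them used by both rods and cones, gave a further comparison. Of 20 listed, 17 passed, 11 were lower and 6 higher in ONC, limma called 0, and the median difference was -0.14. With the array as a block, 3 of the 17 were called, all lower, where 7.69% of all genes were called: Gnb5, which helps to switch transducin off, at -0.58 (adjusted p = 0.0304 by limma), the guanylate cyclase activator Guca1b at -0.43 (0.0304) and the retinoid-binding protein Rbp3 at -0.38 (0.0334). The highest value was 0.64 for Slc24a2, the exchanger of cones and RGCs (adjusted p = 0.303 by limma). Of 10 photoreceptor transcription factors, 7 passed, with a median of 0.02 and 0 called by limma. Crx differed by -0.30 (adjusted p = 0.429, and 0.0484 with the array as a block), Rxrg, a factor of cone opsin choice, by -0.03, and Nrl, the rod factor, by 0.16.

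Markers of other cells were set beside these values. The median difference was -0.06 for 6 amacrine genes, -0.06 for 4 horizontal cell genes, -0.10 for 4 Müller cell genes, -0.40 for 4 microglial genes, 0.11 for 3 pigment epithelium genes, -0.35 for 5 lens genes and -0.05 for 3 vascular genes. Of these 29 genes 10 were higher and 19 lower in ONC, and limma called 0. The fit with a block for the array called 2, Slc6a9 (-0.41) and Slc1a3 (-0.56), which is 6.90% against 7.69% of all genes. In the lists of these 2, Calb2 (0.40) and Glul (0.58) lay as far to the other side. The 4 microglial genes also went both ways, from -0.69 to 0.39, with 3 lower and 1 higher in ONC. The median of the lens genes against the mean was highest in CTR2 (1.25), where Arr3 and Pde6c were highest, and next in ONC4 (0.52), where both were among the low channels; the part of lens tissue was not tested.

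The 250 bases before the start of each gene in RefSeq (GRCr8) were searched for TAATCC and its reverse complement GGATTA, the core that Crx binds. Promoters were listed for 5 members, Opn1sw, Opn1mw, Arr3, Pde6h and Cnga3, and 1 of them, that of Opn1sw, held it, where 6.34% of all 33469 promoters did. It begins 106 bases before the start on the minus strand, in chr4:58945914-58945943, with the match in capitals.
Opn1sw: ctaagagatctcTAATCCcggactttgctg

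**Figure D5:**
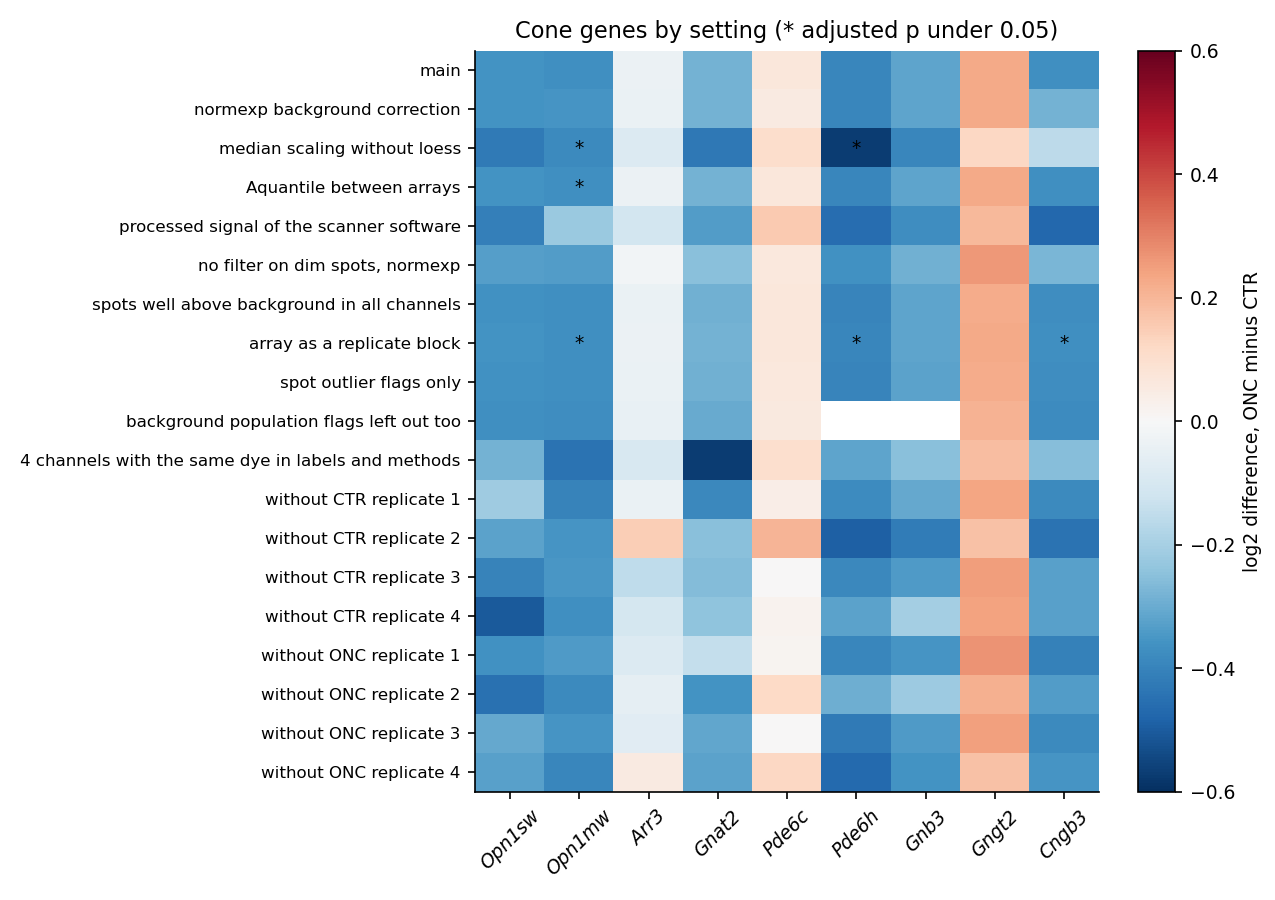
Log2 difference, ONC minus CTR (colour), of each cone gene (columns) under each setting (lines), with an asterisk where the adjusted p was under 0.05 and white where a gene had no value. Opn1mw, Pde6h and Cngb3 are called with the array as a block, and Arr3 changes sign without CTR2 or ONC4.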

How the data were processed

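The authors deposited spot intensity values per array as written by Agilent Feature Extraction (version 12.0.3.1 by the headers, 11.1.19.1 in the submitters' processing notes): mean foreground and median local background, uncorrected, and a processed signal. Of 44254 spots, 1377 controls were left out, as were spots with an outlier flag on the spot or for uneven background, or with foreground under 2 times background in any channel. This kept 27371 spots, 18599 probes and 16307 genes. 2 other sets of flags had been run first, and their calls seen, before this set was settled; it was chosen because it gave the spot and gene numbers of an earlier account of these data, and the others are given as alternatives. Background was subtracted, each array normalized by loess and each channel centred on its median. Spots of a probe, then probes of a gene, were averaged. limma 3.58.1 in R 4.3.3 compared groups, with Benjamini-Hochberg adjustment over all genes. Named genes were the members, their rod paralogues, list genes called or at the extremes, label markers and the 5 most similar profiles; Rxrg, Nrl, Calb2 and Glul were named after their values were seen. Members and lists were chosen with earlier results of these data known. 1 listed gene is not reported here, but was kept in every adjustment. Scripts were tested on simulated data. Alternatives covered background correction, normalization, filters, flags, the array as a block, and leaving out each channel.

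Same-numbered channels share an array by the labels, so the numbers pair the samples. The deviations of CTR and ONC channels from their group means correlated across genes at 0.15, 0.55, 0.40 and 0.49 on arrays 1 to 4. Batches of RNA extraction are not given in the sources used here, and p-values measure the spread between these samples.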

Additional observations from a re-analysis of the deposited data

Results flagged for a closer look

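In 5 of 34 sets of 4 channels examined, 1 channel lay far from the other 3, with a gap to its nearest neighbour so wide a part of the range that it exceeded Dixon's 95% critical value. Chance gives about 1 such set in 20. Gnat2 was 4.04 in CTR1 against 4.41 to 4.47 in the other CTR channels (gap over range 0.855). Gnb3 was 2.56 in ONC2 against 2.93 to 2.99 in the other ONC channels (0.856). Gngt2 was 3.38 in CTR2 against 3.56 to 3.60 in the others (0.8295). The log2 ratio of Pde6c over Pde6b stood apart in CTR2 (0.8298), and that of Cngb3 over Cngb1 in ONC4 (0.900). CTR2 is also the CTR channel with high RGC markers, and ONC4 the ONC channel with low ones; their part in these values was not tested.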

How the results depend on the processing

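The count of 81 genes was 14 with normexp, 3194 with median scaling, 408 with Aquantile, 21 with the processed signal, 123 over spots well above background, 1254 with the array as a replicate block, 2690 by the methods' t-test before adjustment and 0 after it. It was 0 by limma with normexp and no filter on dim spots (1957 genes at an unadjusted p under 0.05) and in CTR2, CTR4, ONC1 and ONC3, which have the same dye in labels and methods (1961), and 0 to 38 with a channel left out. Of the calls, 46.9% were higher in ONC, and 71.0% with median scaling. Of the 9 members, 0 were called. This became 2 with median scaling (3194 of all 16307 genes), 1 with Aquantile (408) and 3 with the block (1254). By the methods' t-test before adjustment 4 were called (2690 of all genes), the study's fold cut-off not being applied. The block changed no other call among the members, and for pairs its smallest possible p is 0.125. 2 alternatives were added after results had been seen: flags on the spot only gave 80 genes and 0 members, and leaving out background population flags too gave 113 genes and 0 of 7 members, as Pde6h and Gnb3 lost their spots. The median difference of the members stayed between -0.38 and -0.24. Some differences changed sign. The opsin ratio was 0.0043 with normexp, 0.040 with median scaling, 0.19 with the processed signal, -0.18 to 0.14 with a channel left out. Gnat2 over Gnat1 was 0.20 with median scaling, 0.015 with normexp and no dim-spot filter, -0.23 to 0.11 with a channel left out. Pde6c over Pde6b was 0.39 with median scaling, 0.0047 with normexp and no dim-spot filter, -0.12 to 0.20 with a channel left out. Pde6h over Pde6g was 0.013 with median scaling. Gnb3 over Gnb1 was -0.13 with the processed signal. Gngt2 over Gngt1 was -0.042 with the processed signal, -0.15 in those 4 channels, -0.032 to 0.11 with a channel left out. Arr3 was -0.15 to 0.15 with a channel left out. The cause of these changes was not tested. Of 160 values for members, 152 kept direction and side of the threshold, and 109 of 122 for pairs kept direction. Dye and condition cannot be told apart, RGC markers go against the labels, and signal over background limits Cnga3 to no fold.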
